A study of Homo sapiens with 18 samples.

Results

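B11 is a clone of the human acute myeloid leukaemia line THP1 in which a doxycycline-inducible NRAS G12V takes the place of the line's own mutant NRAS, and the comparison described here is its step from low to high induction. The members are all 3 libraries of B11 at 10 ug/ml doxycycline and all 3 at 1 ug/ml, 6 of the 18 libraries of the series, taken by their labels. They were compared over 17555 genes that reached at least 1 FPKM (fragments per kilobase of transcript, normalised to library depth) in at least 3 of the 18 libraries, out of 60658 gene IDs in the deposited table. Every treated plate received doxycycline for 5 days before total RNA was prepared. THP1 is a monocytic line and carries, per the labels, a heterozygous NRAS G12D. To make B11, a lentiviral NRAS G12V that the guide RNAs do not cut was put into THP1 together with GFP, and GFP-positive cells received Cas9, a puromycin resistance gene and 2 guide RNAs around the start codon of the NRAS locus. The labels call B11 heterozygous NRAS G12V. B11 is 1 clone, so no result separates the transgene from other properties of this clone, and the sources used here do not give the promoter of the transgene. The 9 plates of each line came from 1 culture, so p-values measure the spread between plates. THP1 at 10 and 1 ug/ml (3 libraries each) carries no transgene and gives the same step of the drug, and untreated B11 (3 libraries) gives the level without induction.

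NRAS encodes a small GTPase of the RAS family. Bound to GTP it activates the RAF kinases, which activate MEK and then ERK, and it also reaches PI3K and RAL signalling. Changes of glycine 12 slow GTP hydrolysis and keep the protein active. In acute myeloid leukaemia, mutant NRAS is known for driving proliferation and self-renewal of blast cells. ERK signalling is followed by immediate early genes such as EGR1 and FOS and by feedback inhibitors such as the DUSP, SPRY and SPRED families. Type I interferon signals through a complex that includes STAT2 and IRF9, which binds a DNA element with repeated GAAA in the promoters of antiviral genes.

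The table gives an estimated 12.1 to 16 M fragments per library at 1 ug/ml and 12.2 to 13 M at 10 ug/ml, at which 1 fragment per kilobase is worth 0.0624 to 0.0824 FPKM. Libraries B and C of the low dose stood apart: an Ensembl ID without a name in the annotation held 76850 and 42500 FPKM there, 6.51% and 3.76% of the library's FPKM sum, and was at or close to 0 in the other 16 libraries. For most lists, counts of members called in B11 are therefore given with and without this pair, which leaves 1 library at that dose. The genes assigned to the mitochondrial genome held 3.86 to 4.02% of the FPKM sum at 1 ug/ml and 2.49 to 3.71% at 10 ug/ml. All 12 monocytic markers reached 1 FPKM in at least 1 of the 6 libraries, with summed levels of 4909 to 5114 FPKM at 1 ug/ml and 4751 to 5080 at 10 ug/ml. CTSG weighed most in the sum, with means of 3309 and 3506 FPKM, low dose first, so the sum does not show the other markers. The means of CSF1R were 43.5 and 14.1 FPKM, of ITGAM 27.85 and 11.3, of CD14 6.03 and 0.976 and of LYZ 448.5 and 293.6. Only CTSG, SPI1 and MPO had a higher mean at 10 ug/ml. HOXA9 and HOXA10 were detected and MEIS1 was below 1 FPKM on average. The summed markers of T cells, B cells, red cells, fibroblasts and endothelium stayed at or below 4.11 FPKM in all 6 libraries, and those of megakaryocytes and epithelium reached 13.1 and 5.49. NCAM1, an adhesion molecule listed as a natural killer marker, had means of 163.8 and 186.0 FPKM in B11 and of 1.79 and 1.27 FPKM in THP1, low dose first. The other markers of that list were near 0. Because the samples are bulk RNA, fewer cells of a type and less RNA per cell cannot be told apart.

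NRAS itself was at 24.4, 23.7 and 23.3 FPKM at the low dose and 27.99, 27.7 and 28.2 at the high dose in libraries A, B and C. All 3 libraries at the high dose were above all 3 at the low dose, by 1.17 times in the mean. The difference of log2(FPKM + 1), the scale of all changes below, was 0.22 (SE 0.07, adjusted p = 0.0488) by limma with Benjamini-Hochberg adjustment, as are all adjusted p-values. That call was lost in 15 of 19 alternative settings, among them the removal of any 1 of the 6 libraries (adjusted p = 0.0796 to 0.141) and of libraries B and C together (adjusted p = 0.418). Untreated B11 had 20.9 ± 1.09 FPKM of NRAS (SD, n = 3) and B11 at the low dose 23.8 ± 0.579. THP1 had 23.3 ± 0.349 FPKM without the drug, 23.4 ± 1.97 at 1 ug/ml and 24.3 ± 0.505 at 10 ug/ml, so the low-dose mean of B11 lay between the treated means of THP1. In THP1 NRAS changed over the same step by 0.05 (SE 0.07, adjusted p = 0.884). The table gives 1 value per gene, so it does not separate the transgene from the edited locus.

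The step from 1 to 10 ug/ml changed 2249 of 17555 genes in B11 at an adjusted p under 0.05, which is 12.8% of those tested. Of these, 999 (5.69%) were higher and 1250 (7.12%) lower at 10 ug/ml. Among the called genes the falls were the larger changes: 295 genes fell and 85 rose by at least 1 on the log2 scale, and the median change of all genes tested was -0.01. Without low-dose libraries B and C 611 genes were called, 574 of the 2249 were among them, and 99.9% of the 2249 kept their sign. Leaving out library C at 1 ug/ml gave 1487 calls and leaving out library C at 10 ug/ml gave 1482. The same step in THP1 called 52 genes (0.296%), 9 higher (0.0513%) and 43 lower (0.245%), with a median change of -0.01. The THP1 count came to 13 to 21 when any 1 of the 6 THP1 libraries was left out and to 11 with only the 2 groups compared in the fit, and 9 of the 52 genes kept their call whichever library was left out. The step differed between the lines for 814 genes (4.64%), 395 with a higher change in B11 (2.25%) and 419 with a lower one (2.39%), and this count came to 502 without library C of B11 at 1 ug/ml and to 232 without B and C. Among the lists, the shares called lower were 57.3% of interferon genes, 66.7% of monocyte receptors and 44.2% of ATF4 targets. The shares called higher were 41.7% of NRF2-linked genes, 40.0% of cholesterol genes and 25% of MAPK output genes.

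**Figure D1:**
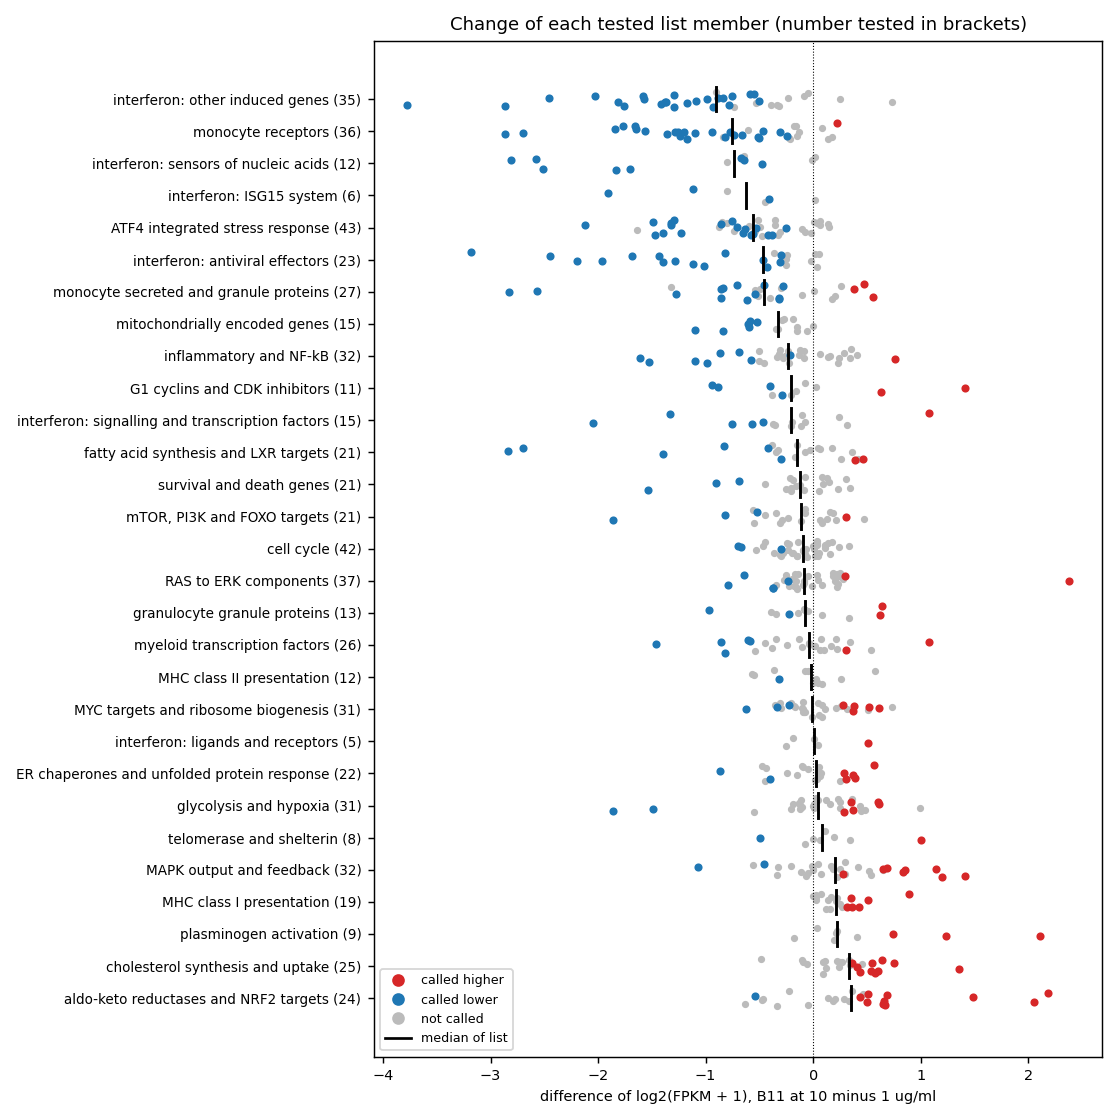
Change of each tested member of 29 gene lists in B11, at 10 minus 1 ug/ml, as the difference of log2(FPKM + 1); each point is a gene, coloured when called, and the black bar is the median of the list. Medians run from -0.91 for other interferon-induced genes to 0.35 for aldo-keto reductases and NRF2 targets.

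Interferon-stimulated genes fell as the dose rose from 1 to 10 ug/ml. Of 116 listed interferon genes 96 were tested, and 55 were lower and 2 higher at 10 ug/ml, against 7.12% lower and 5.69% higher among all genes. The median change over the list was -0.65, and it was -0.06 in THP1, where none of the 96 was called. The difference between the lines was called for 37 of the 96, 35 of them lower in B11 (29 to 35 when 1 library of either line was left out). Without libraries B and C 35 were lower and 1 higher.

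Promoter sequence of genes in this group is shown because many members share one DNA element. The letters GAAANNGAAA, a simplified form of the interferon-stimulated response element in which N is any base, were searched on both strands in the 250 bases before each RefSeq gene start on GRCh38.p14, and overlapping matches were counted. Of 116 listed interferon genes 85 had a promoter in the RefSeq table. The letters were present for 39 of the 85 (45.88%), against 1014 of 27305 genes (3.71%). They were present for 24 of 41 interferon genes called lower (58.54%) and for 8 of 28 that were tested and not called lower (28.57%). The stretches below run in the direction of transcription, with matches on either strand in capitals. They belong to 6 genes that fell: IFI27 (an interferon-induced protein of mitochondria), IFIT1 and IFIT3 (which bind foreign RNA), ISG15 (a ubiquitin-like modifier), IFITM3 (a membrane protein that blocks virus entry) and PARP9 (an ADP-ribosyltransferase family member).
IFI27, chr14:94110598-94110680, plus strand: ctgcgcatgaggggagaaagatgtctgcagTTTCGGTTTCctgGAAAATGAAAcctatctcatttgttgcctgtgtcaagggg
IFIT1, chr10:89392477-89392559, plus strand: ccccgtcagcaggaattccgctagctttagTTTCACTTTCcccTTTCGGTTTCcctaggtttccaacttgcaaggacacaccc
IFIT3, chr10:89327811-89327914, plus strand: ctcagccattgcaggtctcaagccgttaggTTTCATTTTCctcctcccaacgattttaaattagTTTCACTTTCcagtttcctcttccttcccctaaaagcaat
ISG15, chr1:1013354-1013429, plus strand: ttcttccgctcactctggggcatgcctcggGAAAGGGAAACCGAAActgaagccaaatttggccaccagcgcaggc
IFITM3, chr11:320861-320942, minus strand: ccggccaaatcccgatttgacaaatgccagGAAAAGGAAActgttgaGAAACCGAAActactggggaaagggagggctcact
PARP9, chr3:122564302-122564371, minus strand: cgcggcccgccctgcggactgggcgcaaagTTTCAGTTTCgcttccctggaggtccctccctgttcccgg
IFIT1, IFIT3 and PARP9 hold the letters on the antisense strand, ISG15 and IFITM3 on the sense strand, and IFI27 on both. In ISG15 the 2 matches overlap and share a GAAA. A match is a description of the letters and not of a bound site.

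Among antiviral effectors 15 of 23 tested genes fell and none rose (10 without libraries B and C). IFIT1 was at 11.01, 11.6 and 8.24 FPKM at the low dose and 1.16, 1.31 and 1.896 at the high dose. IFIT1 thus had no overlap between the doses, and its change was -2.20 (SE 0.18, adjusted p = 1.83e-06). IFIT3, whose protein pairs with IFIT1, was at 13.3, 14.1 and 12.5 FPKM at the low dose and 3.31, 2.36 and 2.395 at the high dose, a log2 difference of -1.97 (SE 0.19, adjusted p = 9.46e-06). IFITM3 fell from 361 ± 21.8 FPKM (SD, n = 3) to 178 ± 7.67, a log2 difference of -1.01 (SE 0.08, adjusted p = 2.16e-06). SAMHD1, which degrades deoxynucleotides, was lower at the high dose with little spread between plates, and was at 128, 125 and 123 FPKM at the low dose and 44.8, 47.6 and 44.8 at the high dose. Its change was -1.43 (SE 0.05, adjusted p = 7.81e-11), against -0.05 (SE 0.05, adjusted p = 0.795) in THP1. TRIM22, a ubiquitin ligase that restricts viruses, was at 43.4, 51.1 and 41.99 FPKM at the low dose and 8.55, 3.08 and 2.45 at the high dose, a log2 difference of -3.18 (SE 0.31, adjusted p = 1.18e-05). TRIM22 overlaps TRIM5 on the other strand, and the sources used here do not say whether reads were counted by strand.

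Of 12 tested sensors of nucleic acids 8 fell and none rose (6 without libraries B and C). The OAS genes, which make the second messenger that activates RNase L, lie side by side on chromosome 12 (GRCh38) and fell together. OAS1 (112906777 to 112933222) was at 47.99, 49.8 and 40.8 FPKM at the low dose and 5.28, 5.25 and 6.67 at the high dose. OAS3 (112938352 to 112973249) was at 25.5, 34.7 and 29.7 FPKM at the low dose and 3.02, 4.81 and 4.904 at the high dose. OAS2 (112978395 to 113011723) was at 61.8, 65.1 and 61.6 FPKM at the low dose and 7.68, 12.5 and 10.9 at the high dose. All 3 were lower in every library at 10 ug/ml than in any at 1 ug/ml, which was a condition for naming them by size. Their changes were -2.81 (SE 0.22, adjusted p = 1.45e-06), -2.57 (SE 0.25, adjusted p = 1.34e-05) and -2.51 (SE 0.24, adjusted p = 1.14e-05). The differences from THP1 were -2.36 (SE 0.31, adjusted p = 0.000558), -2.99 (SE 0.36, adjusted p = 0.000321) and -2.63 (SE 0.35, adjusted p = 0.000602). OASL, a related protein on another stretch of the chromosome, fell from 9.75 ± 0.268 to 2.35 ± 0.668 FPKM. IFI16, a nuclear DNA sensor, fell from 27.4 ± 5.36 to 6.89 ± 1.02 FPKM, a log2 difference of -1.84 (SE 0.26, adjusted p = 0.000321). TMEM173, which encodes the adaptor STING, started from a high level and fell from 630.2 ± 26.5 to 453 ± 11.6, a log2 difference of -0.48 (SE 0.05, adjusted p = 2.06e-05).

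The signalling layer moved in both directions. Of 15 tested signalling proteins and transcription factors 5 fell and 1 rose (3 and 1 without libraries B and C). IRF7, the factor that amplifies interferon production, was at 65.9, 67.9 and 68.8 FPKM at the low dose and 14.3, 18.6 and 14.2 at the high dose. The 2 doses of IRF7 did not overlap, and the change was -2.05 (SE 0.13, adjusted p = 1.79e-07). In THP1 IRF7 changed by -0.66 (SE 0.13, adjusted p = 0.0506), which was not called, and the difference between the lines was -1.39 (SE 0.18, adjusted p = 0.000631). IRF9, the DNA-binding partner of STAT2, fell from 93.6 ± 4.42 to 36.7 ± 2.58 FPKM, a log2 difference of -1.33 (SE 0.13, adjusted p = 1.74e-05). STAT2 changed by -0.57 (SE 0.08, adjusted p = 0.000453). IRF8, a factor of monocyte and dendritic cell development, went the other way and was at 491, 485 and 458 FPKM at the low dose and 994, 981 and 1043 at the high dose. Its change was 1.07 (SE 0.04, adjusted p = 1.72e-09), and the difference from THP1 was 1.05 (SE 0.06, adjusted p = 2.56e-07). Of the 5 tested ligands and receptors only IFNGR1, a chain of the interferon gamma receptor, was called, and it rose from 26.6 ± 2.46 to 38.3 ± 1.54 FPKM, a log2 difference of 0.51 (SE 0.10, adjusted p = 0.00329). IFNGR1 was not called without low-dose libraries B and C (adjusted p = 0.172).

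Among 35 other interferon-induced genes 24 fell and none rose (15 without libraries B and C). IFI27 had the largest fall of any gene named by size, and was at 80.3, 95.8 and 70.2 FPKM at the low dose and 4.91, 6.62 and 3.85 at the high dose. Every library at 10 ug/ml was below every library at 1 ug/ml, which was a condition for naming it by size. The change of IFI27 was -3.77 (SE 0.55, adjusted p = 0.000364). IFI6, a small membrane protein, was at 220.2, 237 and 207 FPKM at the low dose and 39.4, 38.9 and 39.7 at the high dose, with a log2 difference of -2.46 (SE 0.07, adjusted p = 6.54e-11). XAF1, which binds the apoptosis inhibitor XIAP, fell from 96.7 ± 2.68 to 36.6 ± 0.972 FPKM. SIGLEC1, a sialic acid receptor of macrophages that interferon induces, was at 11.4, 11.7 and 10.8 FPKM at the low dose and 0.832, 0.782 and 0.475 at the high dose, a log2 difference of -2.87 (SE 0.17, adjusted p = 7.27e-08). In the ISG15 system 3 of 6 genes fell (1 without libraries B and C). ISG15 was at 140.2, 161 and 133 FPKM at the low dose and 37.9, 42.3 and 33.6 at the high dose, a log2 difference of -1.91 (SE 0.10, adjusted p = 2.86e-08), and USP18, the protease that removes ISG15, fell from 5.91 ± 0.373 to 2.22 ± 0.567 FPKM, a log2 difference of -1.11 (SE 0.19, adjusted p = 0.00122). USP18 was not called without low-dose libraries B and C (adjusted p = 0.0755).

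Levels in untreated B11 were given by the same table, and since they meet the 1 ug/ml libraries in another comparison they are only set side by side. IFI27 was at 4.24 ± 2.42 FPKM without doxycycline, 82.1 ± 12.9 at 1 ug/ml and 5.13 ± 1.398 at 10 ug/ml (SD, n = 3). ISG15 was at 38.7 ± 2.68, 145 ± 14.7 and 37.9 ± 4.38 FPKM in that order, and OAS1 at 21.4 ± 1.804, 46.2 ± 4.75 and 5.74 ± 0.807. For these 3 genes the middle dose held the highest mean, whereas IRF8 was at 554 ± 23.3, 478 ± 17.7 and 1006 ± 32.7 FPKM and was highest at the high dose. In THP1 at 1 and 10 ug/ml ISG15 was at 27.8 and 28.6 FPKM and OAS1 at 11.3 and 8.61.

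**Figure D2:**
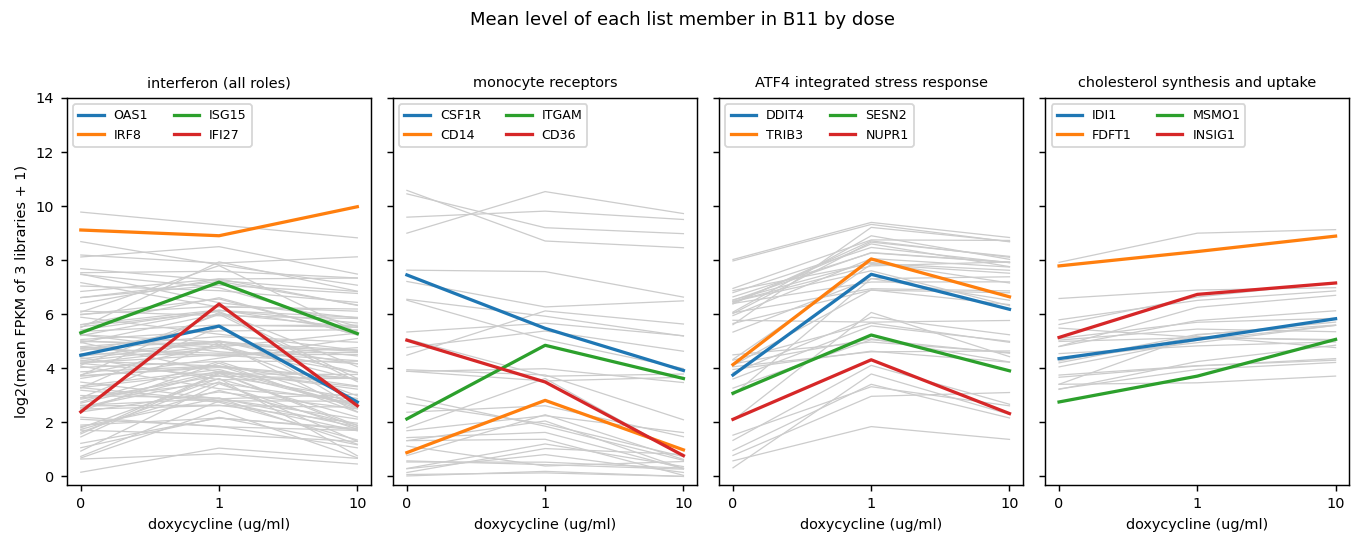
Mean level of each tested member of 4 lists in B11 at 0, 1 and 10 ug/ml doxycycline, as log2(mean FPKM of 3 libraries + 1); grey lines are genes and 4 genes a panel are coloured. IFI27 peaks at 1 ug/ml (82.1 FPKM, against 4.24 and 5.13), CSF1R is lower at each higher dose (174, 43.5 and 14.1 FPKM) and MSMO1 higher (5.75, 12.1 and 32.5 FPKM). CD14, in the panel of CSF1R, peaks at 1 ug/ml (6.03 FPKM, against 0.841 and 0.976).

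Genes of MHC class I presentation, many of which interferon also induces, were not among those that fell. Rises were called for 31.6% of those tested, against 5.69% of all genes. Of 19 tested genes 6 rose and none fell, with a median change of 0.21 (4 rose without libraries B and C). HLA-B was at 740.2, 791 and 757 FPKM at the low dose and 1057, 1010.0 and 1010.0 at the high dose, a log2 difference of 0.43 (SE 0.05, adjusted p = 0.000114). HLA-B did not overlap between the doses, and its step differed from that of THP1 (0.44 (SE 0.08, adjusted p = 0.00431)). PSMB9, a catalytic subunit of the immunoproteasome, rose from 98.8 ± 16.9 to 183 ± 22.8 FPKM, a log2 difference of 0.89 (SE 0.18, adjusted p = 0.00456). The HLA genes resemble each other, so how reads were divided among them is uncertain. The GAAANNGAAA letters were in the promoters of 8 of 16 genes of this list, and in none of the 4 called genes that had a promoter in the table. MHC class II genes had no rise and 1 fall among 12 tested (8.33%, close to the 7.12% of all genes), that of the protease CTSS (-0.31 (SE 0.08, adjusted p = 0.0212)). The call of CTSS was lost when library A or B at 1 ug/ml or A, B or C at 10 ug/ml was left out (adjusted p = 0.05 to 0.0931).

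Surface receptors of mature monocytes fell in B11 from 1 to 10 ug/ml, with 66.7% of those tested called lower, against 7.12% of all genes. Of 36 tested receptors 24 fell and 1 rose, with a median change of -0.75, and 14 fell and none rose without libraries B and C. In THP1 3 of the 36 fell at a median of -0.19 (at most 1 when a THP1 library was left out). The difference between lines was called for 13 of the 36, 12 of them lower in B11 (10 to 12 when 1 library of either line was left out). CSF1R, which binds macrophage colony-stimulating factor, was at 48.8, 39.4 and 42.4 FPKM at the low dose and 16.4, 13.6 and 12.4 at the high dose. Its doses did not overlap and its change was -1.56 (SE 0.10, adjusted p = 2.38e-07). It fell in THP1 too, by a smaller change of -0.66 (SE 0.10, adjusted p = 0.0184), and the difference between the lines was -0.90 (SE 0.14, adjusted p = 0.00248). CD14, the co-receptor of lipopolysaccharide, was at 5.63, 6.197 and 6.26 FPKM at the low dose and 0.868, 1.296 and 0.764 at the high dose, a log2 difference of -1.84 (SE 0.15, adjusted p = 2.97e-06). CX3CR1, the fractalkine receptor, fell from 12.5 ± 1.801 to 3.27 ± 0.259 FPKM, a log2 difference of -1.65 (SE 0.14, adjusted p = 4.10e-06). CD36, a scavenger receptor for lipids, was at 9.44, 7.94 and 13.4 FPKM at the low dose and 0.735, 0.879 and 0.499 at the high dose, which is a log2 difference of -2.70 (SE 0.20, adjusted p = 9.01e-07). The inhibitory receptor LILRB4 fell from 189.9 ± 9.47 to 98.3 ± 6.74 FPKM, and in THP1 it also fell (-0.33 (SE 0.06, adjusted p = 0.0422)). Without doxycycline B11 had means of 174 FPKM for CSF1R, 14.4 for CX3CR1, 31.9 for CD36 and 197 for LILRB4, above both doses. CD14 was at 0.841 FPKM and ITGAM at 3.37 there, so the low dose held the highest mean of each. Of 6 fits that each left out 1 THP1 library, the THP1 call was lost in 5 for CSF1R and 6 for LILRB4.

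Secreted and granule proteins of monocytes followed less evenly, with 48.1% called lower and 11.1% higher, against 7.12% and 5.69% of all genes. Of 27 tested genes 13 fell and 3 rose (5 and 1 without libraries B and C). The median change of the list was -0.46 in B11 and -0.24 in THP1, where 1 gene was called lower. The difference between the lines was called lower in B11 for 3 of the 27 and higher for 2. MPEG1, a pore-forming protein of macrophages, was at 7.68, 6.76 and 5.71 FPKM at the low dose and 0.0656, 0.1205 and 0.0522 at the high dose. It was thus near the limit of detection at 10 ug/ml, and its change of -2.83 (SE 0.14, adjusted p = 1.12e-08) understates the ratio because of the added 1. CFP, which encodes the complement factor properdin, was at 64.1, 71.8 and 72.2 FPKM at the low dose and 11.9, 13.1 and 8.04 at the high dose, a log2 difference of -2.57 (SE 0.14, adjusted p = 2.13e-08). LYZ, lysozyme, fell from 448 ± 25.96 to 294 ± 29.8 FPKM, a log2 difference of -0.61 (SE 0.11, adjusted p = 0.00267), and was at 2781 ± 454 in untreated B11. For LYZ the difference between the lines was not called (-0.38 (SE 0.16, adjusted p = 0.221)). CTSL, a lysosomal protease, was among the genes that rose (0.55 (SE 0.07, adjusted p = 0.000151)). Among 13 tested granule proteins of granulocytes 2 rose and 2 fell (1 and 1 without libraries B and C). SRGN, the granule proteoglycan serglycin, rose from 2237 ± 59.6 to 3443 ± 253 FPKM, a log2 difference of 0.62 (SE 0.08, adjusted p = 0.000208), and SERPINB1, an elastase inhibitor, by 0.64 (SE 0.13, adjusted p = 0.00466). MS4A3, a membrane protein of granulocyte precursors, fell with a change of -0.97 (SE 0.16, adjusted p = 0.000873). On this granulocyte list 15.4% were called higher and 15.4% lower, against 5.69% and 7.12% of all genes. LYZ and SERPINB1 were not called without low-dose libraries B and C (adjusted p = 0.0558 and 0.121).

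Among 26 tested myeloid transcription factors 5 fell (19.2%, against 7.12% of all genes) and 2 rose (7.69%, against 5.69%) (1 and 1 without libraries B and C, and 3 falls without library C at 1 ug/ml). NFE2, a factor of the megakaryocyte and erythroid lines that is also found in myeloid cells, was at 14.2, 14.04 and 12.2 FPKM at the low dose and 4.44, 4.58 and 3.71 at the high dose. It fell by the largest amount of the list, with a log2 difference of -1.47 (SE 0.09, adjusted p = 6.05e-08), and was lower in THP1 as well (-0.60 (SE 0.09, adjusted p = 0.00945)). CEBPB, a factor of macrophage genes, changed by -0.86 (SE 0.13, adjusted p = 0.000505), and MYB, a factor of immature blood cells, by 0.31 (SE 0.06, adjusted p = 0.00317). IRF8, described above, was the other gene to rise. CEBPB and MYB were not called without low-dose libraries B and C (adjusted p = 0.073 and 0.154). Of 6 fits that each left out 1 THP1 library, the THP1 call was lost in 1 for NFE2.

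Among 32 tested MAPK output and feedback genes 8 rose (25%, against 5.69% of all genes) and 2 fell (6.25%, against 7.12%), with a median change of 0.20 (6 and 1 without libraries B and C). EGR1, an immediate early transcription factor, was at 21.6, 20.3 and 20.6 FPKM at the low dose and 52.7, 46.2 and 48.1 at the high dose. The 2 doses did not overlap, and the change was 1.19 (SE 0.12, adjusted p = 1.11e-05). In untreated B11 EGR1 was at 1.34 ± 0.0544 FPKM, and in THP1 at 2.99 and 3.29 at 1 and 10 ug/ml. FOS, its partner among the early genes, rose by 0.84 (SE 0.16, adjusted p = 0.00367). JUN, which forms AP-1 with FOS, went the other way, from 3.91 ± 0.457 to 1.34 ± 0.2695 FPKM, a log2 difference of -1.07 (SE 0.12, adjusted p = 4.42e-05). CCND1, the cyclin D1 gene, was at 4.55, 7.13 and 6.299 FPKM at the low dose and 21.2, 15.2 and 16.3 at the high dose, a log2 difference of 1.42 (SE 0.26, adjusted p = 0.00248). ETV4, an ETS factor, rose by 1.14 (SE 0.20, adjusted p = 0.00194). With a pseudocount of 0.1 in place of 1 the list held 5 rises, and CCND1 (adjusted p = 0.0539) and ETV4 (adjusted p = 0.065) were not called. In the main fit the difference between the lines was called for EGR1 (1.10 (SE 0.16, adjusted p = 0.0014)). It was not called for FOS, CCND1 or ETV4 (adjusted p = 0.113, 0.117 and 0.0764). CCND1 was at 6.10 and 7.45 FPKM in THP1 at 1 and 10 ug/ml. Of the 32 genes 4 had a higher and 2 a lower change in B11 by this test. When 1 library of either line was left out, 2 to 4 were called higher and at most 1 lower.

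Of 37 tested components of the RAS to ERK pathway 5 fell (13.5%, against 7.12% of all genes) and 2 rose (5.41%, against 5.69%) (2 and none without libraries B and C, and 3 falls without library A or B at 1 ug/ml or library B at 10 ug/ml). GAB2, an adaptor that links receptors to RAS, fell from 18.1 ± 1.22 to 10.1 ± 1.29 FPKM, a log2 difference of -0.79 (SE 0.14, adjusted p = 0.00191). RASSF2, a RAS-binding protein, changed by -0.65 (SE 0.09, adjusted p = 0.000267). RASA4B, a RAS GTPase-activating protein, had the largest fitted rise of all genes named by size and was at 0.226, 0.0287 and 0.206 FPKM at the low dose and 6.12, 7.17 and 2.69 at the high dose. Its libraries spread widely at 10 ug/ml, its change was 2.38 (SE 0.62, adjusted p = 0.0208), and RASA4 lies beside it as a near-identical copy, so its reads are uncertain. RASA4B was not called without low-dose libraries B and C (adjusted p = 0.234). The call of RASA4B was lost when library A, B or C at 1 ug/ml or A or B at 10 ug/ml was left out (adjusted p = 0.0506 to 0.0771).

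In the list of plasminogen activation 3 of 9 tested genes rose and none fell (2 without libraries B and C). SERPINB2, the plasminogen activator inhibitor of monocytes, was at 19.3, 20.7 and 19.6 FPKM at the low dose and 88.6, 87.4 and 90.8 at the high dose. The replicates were tight and the change was 2.11 (SE 0.09, adjusted p = 1.72e-09), against 0.22 (SE 0.09, adjusted p = 0.429) in THP1. In untreated B11 it was at 71.1 ± 11.1 FPKM, so that the low dose held the lowest mean. SERPINB10 next to it was at 35.6, 36.8 and 29.5 FPKM at the low dose and 73.97, 87.5 and 82.3 at the high dose, a log2 difference of 1.24 (SE 0.16, adjusted p = 0.000154). The 2 genes overlap on the same strand of chromosome 18 (63871692 to 63903890 for SERPINB2), and reads in the overlap cannot be assigned with certainty. SERPINE2 was the other gene that rose (0.74 (SE 0.21, adjusted p = 0.0302)). Its call was lost when library A, B or C at 1 ug/ml or A or B at 10 ug/ml was left out (adjusted p = 0.0651 to 0.109). The 3 rises, 2 of them of the overlapping genes, were 33.3% of the tested genes of the list, against 5.69% of all genes.

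**Figure D3:**
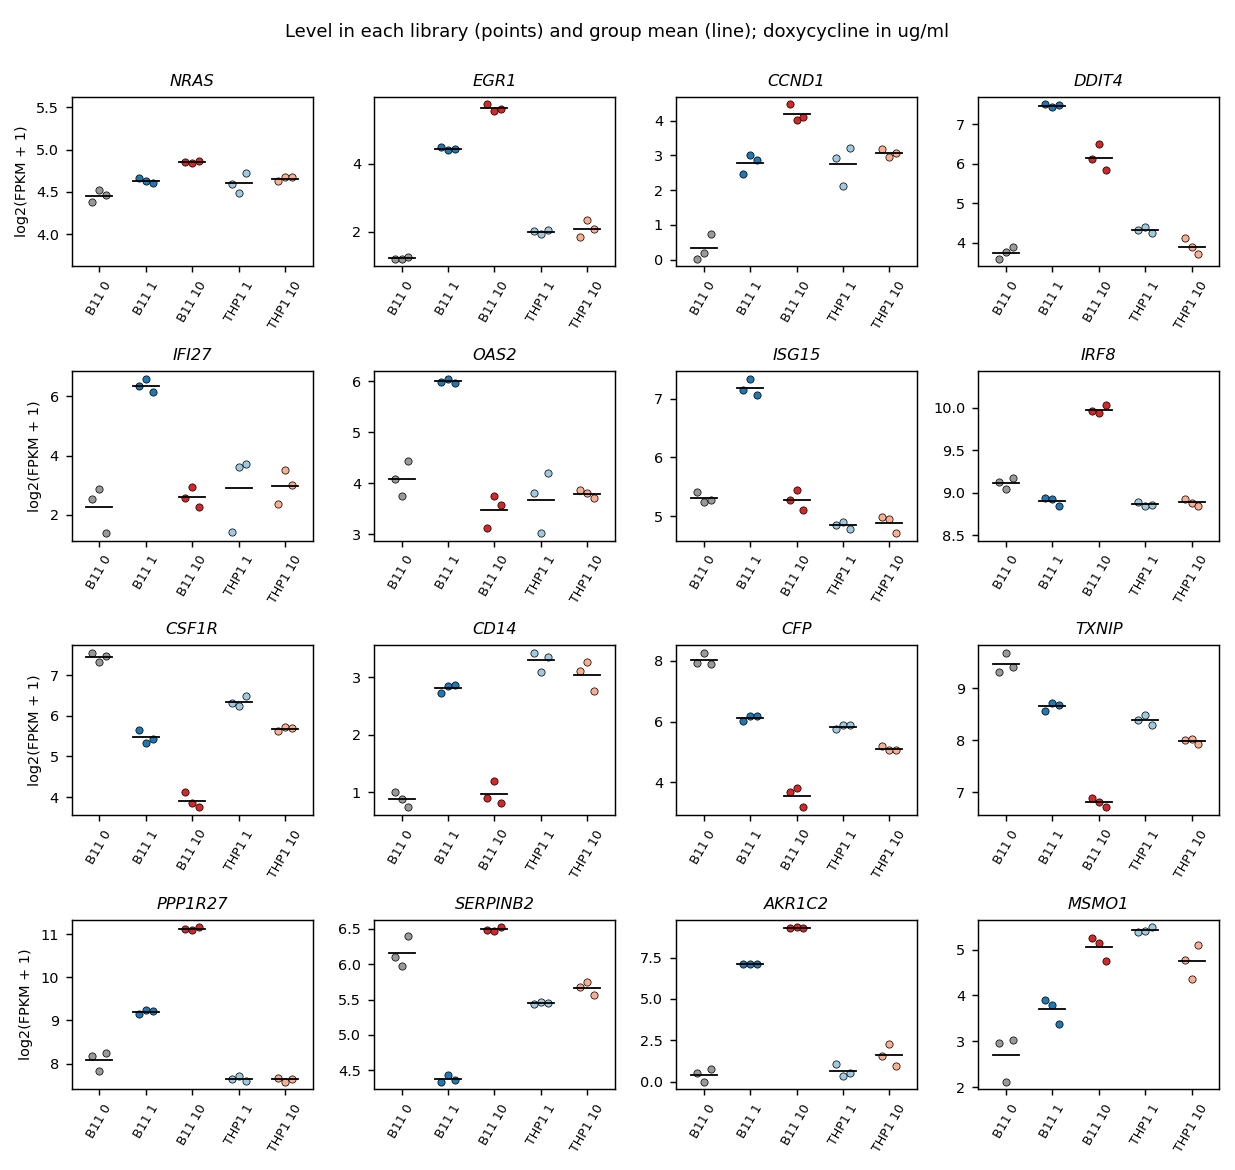
Level of 16 genes in each library as log2(FPKM + 1), on a scale of its own for each gene; points are libraries of B11 at 0, 1 and 10 ug/ml and of THP1 at 1 and 10 ug/ml, and the line is the mean of log2 values. In B11 OAS2, CSF1R and TXNIP at 10 ug/ml lie below all libraries at 1 ug/ml, and EGR1, IRF8 and PPP1R27 above.

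Aldo-keto reductases and targets of NRF2, the factor of the oxidative stress response, had more rises than falls. Of 24 tested genes 10 rose (41.7%, against 5.69% of all genes), 1 fell and 13 were not called, with a median change of 0.35. Without libraries B and C 5 rose, and without library C at 10 ug/ml 6 rose. AKR1C2, a reductase of steroids, was at 139, 137 and 137 FPKM at the low dose and 621, 644 and 626 at the high dose. AKR1C1 was at 7.84, 8.81 and 11.7 FPKM at the low dose and 32.8, 28.1 and 78.7 at the high dose. Both were far above THP1, where AKR1C2 was at 0.616 and 2.27 FPKM at 1 and 10 ug/ml, and above untreated B11, where it was at 0.367. Their changes were 2.19 (SE 0.28, adjusted p = 0.000114) and 2.05 (SE 0.30, adjusted p = 0.000414), and the neighbouring AKR1C3 rose as well. The AKR1C genes are close copies on chromosome 10, and the division of reads among them is uncertain. PRDX1, a peroxidase, rose from 503 ± 14.6 to 714 ± 56.7 FPKM, a log2 difference of 0.50 (SE 0.07, adjusted p = 0.000293). TKT, a transketolase of the pentose phosphate pathway, changed by 0.43 (SE 0.06, adjusted p = 0.00038). The ferritin chains moved apart: FTL, the light chain, was at 4525, 4529 and 4525 FPKM at the low dose and 6937, 7264 and 7601 at the high dose, a log2 difference of 0.68 (SE 0.06, adjusted p = 8.76e-06). FTH1, the heavy chain, was the gene of the list that fell (-0.54 (SE 0.09, adjusted p = 0.00102)). FTH1 was not called without low-dose libraries B and C (adjusted p = 0.0907).

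Many targets of ATF4, the factor of the integrated stress response, fell. Of 43 tested genes 19 fell (44.2%, against 7.12% of all genes) and none rose, with a median change of -0.56, while in THP1 the median was 0.36 with 1 rise. The difference between the lines was called for 18 of the 43, all lower in B11, and for 11 to 15 when 1 library of either line was left out. Only 4 of the falls were called without libraries B and C, at a median of -0.57. TRIB3, a pseudokinase that restrains AKT and ATF4, was at 264, 254 and 271 FPKM at the low dose and 97.9, 95.5 and 104 at the high dose. DDIT4, an inhibitor of mTORC1, was at 181, 173 and 177 FPKM at the low dose and 68.3, 90.3 and 56.2 at the high dose. SESN2, a leucine sensor of the same pathway, was at 35.5, 37.5 and 36.7 FPKM at the low dose and 13.6, 14.1 and 14.3 at the high dose. None of these overlapped between the doses, and the changes were -1.40 (SE 0.15, adjusted p = 2.32e-05), -1.32 (SE 0.15, adjusted p = 4.08e-05) and -1.32 (SE 0.13, adjusted p = 1.24e-05). SESN2 rose in THP1, by 0.69 (SE 0.13, adjusted p = 0.0426), and the difference between the lines was -2.02 (SE 0.18, adjusted p = 2.45e-05). In untreated B11 TRIB3 was at 16.6 ± 5.47 FPKM and DDIT4 at 12.5 ± 1.42, below both doses. SLC38A2, an amino acid transporter, changed by -0.76 (SE 0.13, adjusted p = 0.00127) and VEGFA, the endothelial growth factor, by -1.30 (SE 0.24, adjusted p = 0.00222). An ATF4-like motif, TGATGNAA on either strand, was in the promoters of 6 of 30 genes of the list with a promoter (20.0%) and of 2 of 14 that were called lower (14.29%), against 3.89% of all genes. VEGFA was not called without low-dose libraries B and C (adjusted p = 0.0693). Of 6 fits that each left out 1 THP1 library, the THP1 call was lost in 6 for SESN2.

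Chaperones of the endoplasmic reticulum were divided: 5 of 22 tested genes rose and 2 fell (1 and none without libraries B and C, and 3 rises without library C at 1 ug/ml or A at 10 ug/ml). HSP90B1, the chaperone GRP94, was at 482, 449.9 and 461 FPKM at the low dose and 614, 624 and 584 at the high dose, a log2 difference of 0.39 (SE 0.05, adjusted p = 0.000105). SDF2L1, a chaperone cofactor, changed by 0.37 (SE 0.07, adjusted p = 0.00332). HERPUD1, a factor of protein degradation at the same membrane, fell from 147 ± 6.203 to 80.1 ± 7.24 FPKM, a log2 difference of -0.87 (SE 0.20, adjusted p = 0.00886). The 2 falls were 9.09% of the list, close to the 7.12% of all genes, and the 5 rises 22.7%, against 5.69%. SDF2L1 and HERPUD1 were not called without low-dose libraries B and C (adjusted p = 0.0638 and 0.183).

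Genes of cholesterol synthesis and uptake had rises in B11 and falls in THP1 over the same step of doxycycline. Of 25 tested genes 10 rose (40.0%, against 5.69% of all genes) and none fell in B11, with a median change of 0.34. In THP1 9 fell and none rose, with a median of -0.59, and 2 to 4 fell when 1 THP1 library was left out. The difference between the lines was called for 19 of the 25, all higher in B11 (14 without libraries B and C). Without this pair 1 rise was called, at a median of 0.40. MSMO1, a demethylating oxidase of the pathway, was at 13.9, 12.9 and 9.41 FPKM at the low dose and 37.3, 34.4 and 25.9 at the high dose. FDFT1, squalene synthase, was at 325, 323 and 307 FPKM at the low dose and 479.5, 492 and 448 at the high dose. IDI1, which isomerises the isoprene unit, was at 33.95, 30.5 and 33.3 FPKM at the low dose and 59.6, 63.6 and 44.9 at the high dose. The doses did not overlap for any of these, and the changes were 1.36 (SE 0.23, adjusted p = 0.0013), 0.57 (SE 0.09, adjusted p = 0.000575) and 0.75 (SE 0.15, adjusted p = 0.00375). In THP1 FDFT1 changed by -0.48 (SE 0.09, adjusted p = 0.0402) and IDI1 by -0.76 (SE 0.15, adjusted p = 0.0462), both falls, and MSMO1 by -0.68 (SE 0.23, adjusted p = 0.305), which was not called. The differences between the lines were 2.04 (SE 0.33, adjusted p = 0.00241), 1.05 (SE 0.12, adjusted p = 0.000264) and 1.51 (SE 0.21, adjusted p = 0.000876). SQLE, squalene epoxidase, changed by 0.55 (SE 0.10, adjusted p = 0.00259) in B11 and -0.59 (SE 0.10, adjusted p = 0.0337) in THP1. MSMO1, IDI1 and SQLE were not called without low-dose libraries B and C (adjusted p = 0.0783, 0.12 and 0.163). SQLE was not called with only the 2 groups compared in the fit (adjusted p = 0.0656). Of 6 fits that each left out 1 THP1 library, the THP1 call was lost in 5 for FDFT1, 5 for IDI1 and 6 for SQLE.

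**Figure D4:**
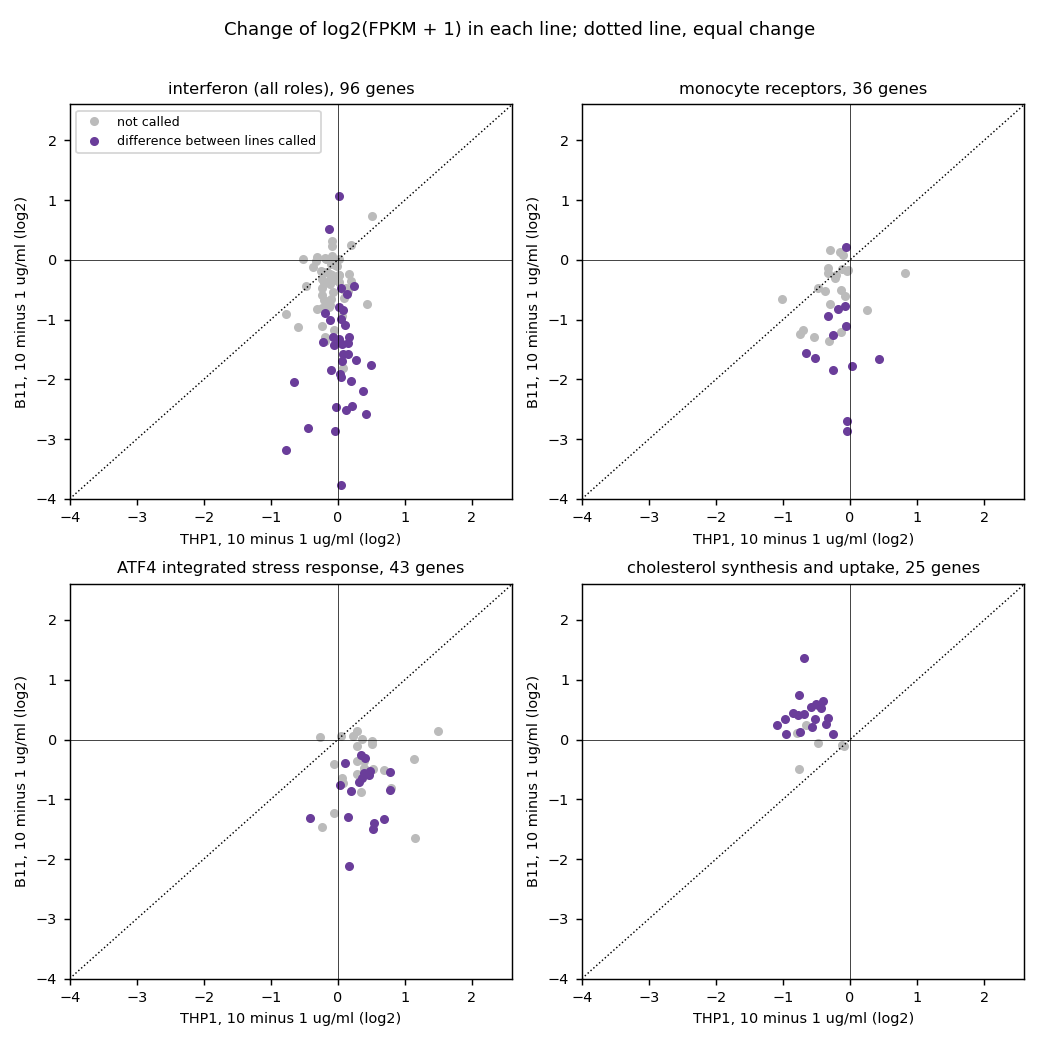
Change of log2(FPKM + 1) from 1 to 10 ug/ml in THP1 (horizontal) and B11 (vertical) for the tested genes of 4 lists; purple points are genes whose change differed between the lines and the dotted line marks equal change. Median changes of the cholesterol list are 0.34 in B11 and -0.59 in THP1, and those of the ATF4 list -0.56 and 0.36.

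Fatty acid synthesis and LXR targets moved in both directions, with 6 falls and 2 rises among 21 tested (3 and none without libraries B and C). FASN, fatty acid synthase, rose from 184 ± 11.8 to 255 ± 21.9 FPKM, a log2 difference of 0.46 (SE 0.11, adjusted p = 0.0101). SREBF1, whose product activates fatty acid genes, fell from 284 ± 17.2 to 159 ± 13.98 FPKM, a log2 difference of -0.83 (SE 0.10, adjusted p = 8.27e-05). On this list 28.6% were called lower and 9.52% higher, against 7.12% and 5.69% of all genes. Among glycolysis and hypoxia genes 5 of 31 rose and 2 fell, but the rises came to 1 without library A, B or C at 1 ug/ml or A at 10 ug/ml, to none without library B at 10 ug/ml or without low-dose libraries B and C, and to 8 without library C at 10 ug/ml. The 2 falls were called in all of these settings: TXNIP, an arrestin that limits glucose uptake, was at 379, 423 and 410.4 FPKM at the low dose and 118, 111 and 103 at the high dose. It was at 713 ± 96.00 FPKM in untreated B11, and its change of -1.86 (SE 0.09, adjusted p = 1.12e-08) was larger than that in THP1 (difference -1.46 (SE 0.13, adjusted p = 2.35e-05)). ARRDC4, a relative of TXNIP under the same sugar-sensing factors, was at 6.71, 6.25 and 5.87 FPKM at the low dose and 1.51, 1.96 and 1.34 at the high dose, a log2 difference of -1.49 (SE 0.12, adjusted p = 2.64e-06). The 2 falls were 6.45% of the glycolysis and hypoxia list, close to the 7.12% of all genes, and the 5 rises 16.1%, against 5.69%. FASN was not called without low-dose libraries B and C (adjusted p = 0.0741).

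Of 42 tested cell cycle genes 3 fell (7.14%, close to the 7.12% of all genes; 2 without libraries B and C) and none rose, and the median change was -0.10. The called members were CENPF, a kinetochore protein (-0.68 (SE 0.11, adjusted p = 0.000739)), MCM7, a subunit of the replicative helicase (-0.30 (SE 0.06, adjusted p = 0.00296)), and CCNE2, a cyclin of S phase entry (-0.70 (SE 0.20, adjusted p = 0.0336)). Other settings called up to 7 falls, at a pseudocount of 5. Among 11 G1 cyclins and CDK inhibitors 4 fell and 2 rose (3 and 1 without libraries B and C). CDKN1A, the inhibitor p21, was at 54.04, 59.6 and 58.1 FPKM at the low dose and 31.5, 32.6 and 24.4 at the high dose, a log2 difference of -0.94 (SE 0.11, adjusted p = 7.53e-05), and it fell in THP1 too (-0.71 (SE 0.11, adjusted p = 0.0229)). CCND3 fell from 374 ± 14.97 to 203 ± 22.5 FPKM while CCND1, given above, rose. Of these 11 genes 36.4% fell and 18.2% rose, against 7.12% and 5.69% of all genes. MCM7 was not called without low-dose libraries B and C (adjusted p = 0.0884). The call of CCNE2 was lost when library A or B at 1 ug/ml or A, B or C at 10 ug/ml was left out (adjusted p = 0.0578 to 0.143). CCNE2 was not called without the filter on low values (adjusted p = 0.0634). CCNE2 was not called with only the 2 groups compared in the fit (adjusted p = 0.146). Of 6 fits that each left out 1 THP1 library, the THP1 call was lost in 5 for CDKN1A.

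Among 32 tested inflammatory genes 8 fell (25%, against 7.12% of all genes) and 1 rose. The falls came to 3 without libraries B and C or without library C at 10 ug/ml, and 1 gene rose in both settings. The median change of the list was -0.23 in B11 and -0.18 in THP1, where none was called. The difference between the lines was called lower in B11 for 3 of the 32 and higher for 1. TNF was at 23.6, 22.6 and 24.6 FPKM at the low dose and 9.61, 9.73 and 4.42 at the high dose, a log2 difference of -1.53 (SE 0.21, adjusted p = 0.000226). IL1RN, the antagonist of interleukin 1, fell from 17.3 ± 1.23 to 4.99 ± 0.424 FPKM, a log2 difference of -1.61 (SE 0.14, adjusted p = 4.33e-06). In THP1 IL1RN changed by -0.71 (SE 0.14, adjusted p = 0.0506), which was not called, and the difference between the lines was -0.90 (SE 0.20, adjusted p = 0.0178). CCL5, a chemokine for T cells and monocytes, was the gene that rose and was at 238, 234 and 240.4 FPKM at the low dose and 405, 426 and 376 at the high dose, a log2 difference of 0.76 (SE 0.08, adjusted p = 1.96e-05). TNF lies in a gene-dense stretch of chromosome 6 with LTB, LST1 and AIF1, and of the 22 genes tested within 100 kb of LST1 8 fell and none rose. Among all genes 7.12% fell. LST1 was named for its own fall, and an effect of the region was not tested. LST1, a leukocyte gene, was at 1250.0, 1453 and 1491 FPKM at the low dose and 540.0, 586 and 404 at the high dose, a log2 difference of -1.47 (SE 0.13, adjusted p = 6.65e-06).

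Of 15 genes of the mitochondrial genome 6 fell and none rose (1 without libraries B and C), with a median change of -0.32 and of 0.01 in THP1. MT-ND6, the subunit of complex I encoded on the light strand, was at 772, 769.6 and 762 FPKM at the low dose and 415, 409.7 and 270.1 at the high dose, a log2 difference of -1.10 (SE 0.15, adjusted p = 0.00025). MT-CO1, of complex IV, was at 3578, 4083 and 4117 FPKM at the low dose and 2982, 2769 and 2075 at the high dose, a log2 difference of -0.60 (SE 0.11, adjusted p = 0.00244). Library C at 10 ug/ml was the lowest for both, and it had the lowest mitochondrial share of the FPKM sum (2.49%). The part of that share in this result was not tested. The 6 falls were 40.0% of the list, against 7.12% of all genes. MT-CO1 was not called without low-dose libraries B and C (adjusted p = 0.144). MT-CO1 was not called with only the 2 groups compared in the fit (adjusted p = 0.0597).

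Of 31 genes of ribosome biogenesis and other MYC targets 5 rose (16.1%, against 5.69% of all genes) and 3 fell (9.68%, against 7.12%) (1 and none without libraries B and C, and 1 fall without library B at 1 ug/ml or A or C at 10 ug/ml). Of 21 survival and death genes 3 fell (14.3%, against 7.12% of all genes). Of 21 mTOR, PI3K and FOXO targets 1 rose (4.76%, close to the 5.69% of all genes) and 3 fell (14.3%). Without libraries B and C 2 genes fell and none rose in each of these 2 lists. NOP58, a nucleolar protein, fell (-0.62 (SE 0.10, adjusted p = 0.000703)), and TP53I3, a p53 target, from 17.1 ± 1.398 to 5.24 ± 0.644 FPKM (-1.54 (SE 0.19, adjusted p = 0.000101)). Of 8 genes of telomerase and shelterin TERT, the catalytic subunit, rose and TINF2, of shelterin, fell (-0.49 (SE 0.12, adjusted p = 0.0137)). Each was 12.5% of the list, against 5.69% higher and 7.12% lower among all genes. TERT was at 14.8, 14.7 and 13.6 FPKM at the low dose and 30.9, 31.9 and 26.9 at the high dose, a log2 difference of 1.00 (SE 0.19, adjusted p = 0.00316). It was at 0.682 ± 0.409 FPKM in untreated B11 and at 1.54 and 3.59 in THP1 at 1 and 10 ug/ml, and the difference between the lines was 0.15 (SE 0.27, adjusted p = 0.834). NOP58, TINF2 and TERT were not called without low-dose libraries B and C (adjusted p = 0.0561, 0.282 and 0.104). The call of TINF2 was lost when library B or C at 1 ug/ml was left out (adjusted p = 0.0506 to 0.0537).

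Some of the largest rises lay outside the lists. PPP1R27, a regulatory subunit of protein phosphatase 1 on chromosome 17 (81833492 to 81835050, minus strand, GRCh38), was at 568, 599.8 and 591 FPKM at the low dose and 2228, 2193 and 2286 at the high dose. All libraries at 10 ug/ml were above all at 1 ug/ml, which was a condition for naming it by size. The mean was 3.81 times as high, and the change was 1.93 (SE 0.08, adjusted p = 1.72e-09). It was at 273 ± 39.8 FPKM in untreated B11 and at 199 and 198 in THP1 at 1 and 10 ug/ml, and the difference between the lines was 1.94 (SE 0.11, adjusted p = 2.56e-07). Of the 16 genes tested within 100 kb of it 3 rose and 2 fell, P4HB changing by 0.24 and SIRT7 by -0.47. Among all genes 5.69% rose and 7.12% fell. CA2, carbonic anhydrase 2, was at 2111, 2413 and 2225 FPKM at the low dose and 4481, 4121 and 4916 at the high dose, a log2 difference of 1.00 (SE 0.09, adjusted p = 8.52e-06). MACROD1, an ADP-ribose hydrolase, was at 11.3, 12.97 and 12.9 FPKM at the low dose and 37.4, 47.3 and 39.2 at the high dose, a log2 difference of 1.66 (SE 0.20, adjusted p = 7.74e-05). The step differed from that of THP1 for both (0.86 (SE 0.13, adjusted p = 0.00177) and 1.96 (SE 0.28, adjusted p = 0.00121)), and MACROD1 overlaps FLRT1 and OTUB1 on the other strand. GNAI1, an inhibitory G protein subunit, was at 7.31, 8.65 and 8.61 FPKM at the low dose and 25.6, 31.1 and 34.2 at the high dose, a log2 difference of 1.76 (SE 0.29, adjusted p = 0.00098). CACNB1, a calcium channel subunit, was at 3.37, 6.11 and 2.598 FPKM at the low dose and 15.5, 15.1 and 17.8 at the high dose, a log2 difference of 1.82 (SE 0.35, adjusted p = 0.00314). CASTOR1, the arginine sensor of mTORC1, rose from 3.400 ± 0.612 to 12.9 ± 4.73 FPKM (1.61 (SE 0.33, adjusted p = 0.00473)), and PLD1, a phospholipase, from 13.3 ± 2.07 to 49.1 ± 16.5 (1.76 (SE 0.40, adjusted p = 0.00871)). C16orf86, which overlaps ENKD1 on the other strand, rose by 1.66 (SE 0.24, adjusted p = 0.000343). AP000781.2, a transcript that spans PRG2 and SLC43A3, was the other gene named by size, with a log2 difference of 2.05 (SE 0.51, adjusted p = 0.0157). CASTOR1, PLD1 and AP000781.2 were not called without low-dose libraries B and C (adjusted p = 0.153, 0.187 and 0.257). The call of AP000781.2 was lost when library B at 1 ug/ml or B at 10 ug/ml was left out (adjusted p = 0.0508 to 0.0695). AP000781.2 was not called with a pseudocount of 0.1 (adjusted p = 0.189).

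Among abundant genes the largest differences of mean FPKM were also taken. Beside CA2, PPP1R27 and FTL, the rises were those of EEF1A1, a translation elongation factor, and RPS23, a ribosomal protein. RPS23 was at 4219, 4015 and 4108 FPKM at the low dose and 5207, 5598 and 5705 at the high dose, a log2 difference of 0.42 (SE 0.06, adjusted p = 0.000596), and EEF1A1 rose from 6598 ± 413 to 8087 ± 369 FPKM (0.29 (SE 0.08, adjusted p = 0.0238)). Both have many processed copies in the genome, so some of their reads are uncertain. The falls were those of LST1, MT-CO1, MT-CO3 (-0.52 (SE 0.12, adjusted p = 0.0081)), MT-ND1 (-0.60 (SE 0.12, adjusted p = 0.00383)) and HNRNPH1, a splicing factor, which was at 1820.0, 2051 and 1983 FPKM at the low dose and 1335, 1279 and 1005 at the high dose, a log2 difference of -0.70 (SE 0.12, adjusted p = 0.00106). RPS23, EEF1A1, MT-CO3, MT-ND1 and HNRNPH1 were not called without low-dose libraries B and C (adjusted p = 0.0522, 0.437, 0.238, 0.153 and 0.0799). The call of EEF1A1 was lost when library B or C at 1 ug/ml or B or C at 10 ug/ml was left out (adjusted p = 0.0659 to 0.093). EEF1A1 was not called without the filter on low values (adjusted p = 0.067). EEF1A1 was not called without a trend in the moderation (adjusted p = 0.0613). MT-CO3 and MT-ND1 were not called with only the 2 groups compared in the fit (adjusted p = 0.0923 and 0.0646).

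G0S2, an inhibitor of the lipase ATGL, was at 84.1, 77.4 and 80.9 FPKM at the low dose and 9.397, 12.4 and 9.64 at the high dose. It was at 3.95 ± 2.54 FPKM in untreated B11, so the low dose held the highest mean, and the change was -2.84 (SE 0.25, adjusted p = 4.81e-06). GLIPR1, a secreted protein of myeloid cells, was at 11.6, 17.2 and 14.96 FPKM at the low dose and 1.49, 0.9103 and 1.41 at the high dose, a log2 difference of -2.77 (SE 0.14, adjusted p = 1.12e-08), and it overlaps KRR1 on the other strand. LSP1, an actin-binding protein of leukocytes, was at 14.3, 13.2 and 11.9 FPKM at the low dose and 1.599, 2.51 and 0.398 at the high dose, a log2 difference of -2.60 (SE 0.24, adjusted p = 7.80e-06). In THP1 GLIPR1 fell by a smaller amount (-0.71 (SE 0.14, adjusted p = 0.0462)), and LSP1 changed by -1.21 (SE 0.24, adjusted p = 0.0506), which was not called. Of 6 fits that each left out 1 THP1 library, the THP1 call was lost in 6 for GLIPR1.

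Of the 52 genes called in THP1 29 were also called in B11, 55.8% of the THP1 calls and 1.29% of the B11 calls, where 12.8% of all genes were called in B11. The THP1 calls are those of the fit with all libraries, and 26 of the 52 were lost whichever THP1 library was left out. In 17 of the 29 both lines fell, among them CSF1R, CFP, NFE2, GLIPR1, LILRB4 and CDKN1A, named above. CENPV, a centromere protein, was the gene that rose in both. The other 11 moved in opposite directions, among them the cholesterol genes INSIG1, ACAT2, SQLE, FDFT1 and IDI1, which rose in B11 and fell in THP1. SESN2 fell in B11 and rose in THP1. Of the genes named in this paragraph only INSIG1 kept its THP1 call whichever THP1 library was left out.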

How the data were processed

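Total RNA of 18 plates was sequenced, and the 6 groups of 3 libraries follow the labels. The authors deposited 1 FPKM value per gene and library, made with HISAT2 and Cuffnorm on GRCh38 per the submitters' processing notes; the sources used here give no versions, annotation, strand setting or scaling, and the unit was inferred from the tool named there and from the values. The table gives no counts, and FPKM in a library moves with the share taken by abundant genes. Depth was estimated from the steps between low values of 2183 genes with 1 transcript. Names and coordinates came from GENCODE release 29 (57047 of 60658 IDs) and promoters from RefSeq (GRCh38.p14).

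The filter kept genes that reached 1 FPKM in 3 or more libraries. Values were taken as log2(FPKM + 1), which understates changes of low genes. Means of the 6 groups were fitted over all 18 libraries in limma (version 3.58.1, R 4.3.3), with a trend of variance on intensity, and p-values were adjusted by Benjamini-Hochberg over 17555 genes within each contrast, with calls under 0.05. The fit was tested on simulated data. No set test was run. NRAS was named, with the 12 rising and 12 falling protein-coding genes of largest change and the 5 of largest FPKM difference in each direction (called, at least 5 FPKM in the higher group, libraries separated), and up to 6 called members of each list by smallest p. The comparison, the 29 lists and the naming rule were chosen with earlier results of these data known. AKR1C3, P4HB, SIRT7, INSIG1, ACAT2 and CENPV lie outside that rule and were named after their values were seen. Values of some genes that the rule covers are not reported here. The alternatives covered the pseudocount, filter, scaling, moderation, libraries in the fit, replicate block, protein-coding genes only, and libraries left out. The labels give no batch. Figures used matplotlib 3.10.9 in Python 3.11.15.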

Additional observations from a re-analysis of the deposited data

Results flagged for a closer look

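The step from 1 to 10 ug/ml differed between B11 and THP1 for 814 genes by the test of the difference in limma (adjusted p under 0.05). Among the genes named by size, the rises were larger in B11 than in THP1 on the log2 scale for CACNB1 (2.23), MACROD1 (1.96), AKR1C1 (1.94), PPP1R27 (1.94), SERPINB2 (1.89), C16orf86 (1.81), GNAI1 (1.54), CA2 (0.86), FTL (0.74) and RPS23 (0.35). The falls were larger in B11 for IFI27 (-3.82), G0S2 (-3.34), OAS3 (-2.99), SIGLEC1 (-2.83), CD36 (-2.66), OAS2 (-2.63), MPEG1 (-2.50), TRIM22 (-2.40), OAS1 (-2.36), GLIPR1 (-2.07), CFP (-1.85), LSP1 (-1.38), LST1 (-1.23) and MT-CO1 (-0.60). Over 12 fits that each left out 1 library, this call was lost in 12 for GNAI1, 10 for RPS23, 10 for MT-CO1, 8 for LSP1 and 1 for CACNB1. The difference was not called for the other genes named by size: RASA4B, AKR1C2, AP000781.2, PLD1, CASTOR1, EEF1A1, MT-CO3, MT-ND1 and HNRNPH1.

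An ID without a name in the annotation, which entered no comparison of the report by name, was at 76850 FPKM in library B and 42500 FPKM in library C of B11 at 1 ug/ml, and at or close to 0 in untreated B11 and in all THP1 libraries.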

How the results depend on the processing

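The count of 2249 genes called in B11 lay between 1872 and 2298 in the alternative settings that kept all libraries of both doses, and the direction of the 154 named genes held in every alternative: 80 kept their call in each, 67 lost it without low-dose libraries B and C of B11 and 41 in another alternative. Leaving out 1 library gave 1482 to 1730 calls in B11, 13 to 21 in THP1 and 502 (without library C of B11 at 1 ug/ml) to 740 for the difference. Leaving out both low-dose libraries B and C, with 1 library left at that dose and assumed to vary like the others, gave 611 calls in B11 and 232 for the difference.

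The 52 calls in THP1 came to 31 with a pseudocount of 0.1, 34 without a filter, 28 without a trend, 11 with only the groups compared and 18 with the replicate block. With the replicate block 2082 genes were called in B11 and 728 for the difference. The letters A, B and C did not pair the libraries: deviations of same-lettered libraries correlated at -0.02 to 0.022 in B11 and -0.034 to 0.03 in THP1.

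The NRAS change in B11 missed the threshold at 0.23 with a pseudocount of 0.1, 0.22 with TPM, 0.18 with TPM over named IDs, 0.22 without a trend, with robust moderation, with only the groups compared, with the replicate block and with protein-coding genes, 0.21 to 0.24 with 1 library left out, and 0.19 without libraries B and C. Scaling moved the median of all genes by less than 0.1. The cause was not tested for any of these changes. Genes below about 1 FPKM rest on few fragments, and whether changes between such values could be detected at this depth was not tested.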
